A study of Homo sapiens with 38 samples.

Results

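The 53 genes described here lie on the distal long arm of human chromosome 17, in bands 17q23 to 17q25, between MAP3K3 and TBCD. They were chosen by position and by what earlier work on these same data had shown, namely that single RWPE-1 control libraries differ among themselves over this stretch. They are 53 of the 60252 genes in each expression table and 52 of them are among the 156 genes of the stretch with a mean of at least 5 TPM over the deletion and control libraries, with GAA below that mean. Because the choice used the RWPE-1 deletion and control libraries, their levels in those libraries are given as a description, without a test. All 53 passed the filter on low values in every comparison, and their mean level over the RWPE-1 libraries ran from 6.96 TPM (a relative abundance corrected for gene length) for GAA to 1179 TPM for ACTG1, with a median of 56.8 TPM.

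The study asked how removing the 7p15.2 region that carries prostate cancer risk, which lies near the HOXA cluster, alters gene expression. RNA was sequenced from 7 libraries of RWPE-1, an immortalized non-tumorigenic prostate epithelial line, with the risk region deleted by genome editing, and from 5 RWPE-1 controls that the labels give as wild type for it. It was also sequenced from 3 RWPE-1 libraries transfected with a HOXA13 vector and 3 transfected with an eGFP plasmid, grown in separate flasks, of which the brightest 10% by eGFP were collected at 48 hours, and from C4-2B, a prostate cancer line derived from LNCaP and described by the submitters as tetraploid, as 3 deletion lines (m, le5 and ld9) and 3 control lines with 3 libraries each. The C4-2B deletion lines came from 2 colonies edited a further time, so they may share a parent. An in situ Hi-C map of RWPE-1 cells combined 2 replicates. Nothing in the labels says whether the RWPE-1 deletion and control libraries came from separate clones or cultures, or how either relates to the transfected or Hi-C cells, so the spread between libraries may be technical. HOXA13 itself stood at 684, 717 and 842 TPM with the HOXA13 vector, against 3.77, 1.79 and 2.44 TPM with eGFP. It ranged from 5.27 to 10.1 TPM in the RWPE-1 deletion libraries, against 0.65 to 2.41 TPM in the RWPE-1 controls, and from 0.78 to 1.16 TPM in C4-2B deletion libraries, against 0.76 to 1.99 TPM in C4-2B control libraries. The basal keratin KRT5 ranged from 2540.1 to 10310.3 TPM in RWPE-1 and from 0 to 0.14 TPM in C4-2B, and the luminal protease KLK3 from 0 to 1.15 TPM in RWPE-1 and from 958 to 3317 TPM in C4-2B. The luminal keratins did not follow KLK3. KRT8 ranged from 144 to 897 TPM in RWPE-1 and from 218 to 358 TPM in C4-2B. KRT18 ranged from 184 to 315 TPM in RWPE-1 and from 126 to 344 TPM in C4-2B. The endothelial markers CDH5 and VWF summed to at most 0.16 TPM in any RWPE-1 library.

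The members share a chromosome arm rather than a pathway. The amount of RNA a gene gives depends on its own promoter and enhancers, and also on how many copies of the gene a cell carries, so neighbours on one arm that differ in function can still share a level when they share a template. Most of the genes here are used by every cell: they encode RNA helicases and splicing factors, proteasome and SUMO proteins, kinases and their adaptors, secretory proteins, cytoskeletal proteins and parts of the mitochondrial ribosome. In bulk RNA a lower value in fewer cells and a lower value in every cell cannot be told apart.

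RefSeq promoters, 250 bases before to 50 bases after the annotated start, matched 45 of the 53 members. They were read for 5 short motifs on both strands. The promoters of the 3 matched members with the highest level in RWPE-1 are shown because they belong to genes that differ in function and yet all lay above the deletion range in RWPE-1 controls 3 and 5, with motif matches in capitals. ACTG1 lies at chr17:81512750-81513049, DDX5 at chr17:64506589-64506888 and SUMO2 at chr17:75182910-75183209, all on the minus strand of GRCh38.p14 and each printed 5′ to 3′ in the direction of the gene.
ACTG1: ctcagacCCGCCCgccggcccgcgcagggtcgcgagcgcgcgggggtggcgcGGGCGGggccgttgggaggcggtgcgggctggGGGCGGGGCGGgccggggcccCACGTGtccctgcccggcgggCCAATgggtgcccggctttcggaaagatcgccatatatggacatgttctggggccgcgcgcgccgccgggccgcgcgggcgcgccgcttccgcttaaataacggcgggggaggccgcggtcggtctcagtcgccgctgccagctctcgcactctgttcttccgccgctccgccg
DDX5: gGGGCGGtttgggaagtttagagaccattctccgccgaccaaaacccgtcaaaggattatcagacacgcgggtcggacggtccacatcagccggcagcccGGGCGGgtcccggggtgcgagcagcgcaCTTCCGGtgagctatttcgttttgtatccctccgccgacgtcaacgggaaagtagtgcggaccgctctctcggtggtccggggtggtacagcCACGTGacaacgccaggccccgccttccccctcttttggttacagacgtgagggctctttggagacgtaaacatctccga
SUMO2: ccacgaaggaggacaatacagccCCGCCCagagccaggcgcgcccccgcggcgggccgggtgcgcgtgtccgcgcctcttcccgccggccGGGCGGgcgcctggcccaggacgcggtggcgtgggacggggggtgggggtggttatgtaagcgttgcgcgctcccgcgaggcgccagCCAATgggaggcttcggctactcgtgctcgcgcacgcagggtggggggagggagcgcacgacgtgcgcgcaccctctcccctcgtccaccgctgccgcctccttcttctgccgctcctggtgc

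The capitals mark GGGCGG or its reverse complement CCGCCC (the GC box, 4 matches for ACTG1, of which a pair share a base, 2 for DDX5 and 2 for SUMO2), CCAAT (1 match each for ACTG1 and SUMO2), CACGTG, which reads the same on both strands (1 match each for ACTG1 and DDX5), and CTTCCGG, the reverse complement of CCGGAAG (1 match for DDX5). The GC box was present in 80% of the 45 member promoters, against 71.4% of the 10104 promoters of genes tested in RWPE-1 and 44.95% of all 35116 promoters of the table. CCGGAAG was present in 31.1% of the members' promoters, against 20.6% of tested and 10.3% of all promoters, CACGTG in 17.8%, against 10.4% of tested and 7.26% of all, CCAAT in 33.3%, against 37.3% of tested and 34.6% of all, and TATAAA in 8.89%, against 5.26% of tested and 11.5% of all. The median GC content was 68.7% for the members, 65.3% for tested genes and 58.7% for all promoters. No motif was shared by all member promoters, and the 3 printed promoters differ in their set of matches. The matches are descriptions of these windows.

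The members' levels in single RWPE-1 libraries differed more among the 5 controls than among the 7 deletion libraries. Each library was set against the mean of the 5 controls on the log2(TPM + 1) scale, and the median over the 53 members was taken. In deletion libraries 1 to 7 the median difference was -0.22, -0.25, -0.21, -0.28, -0.18, -0.21 and -0.23. Control 1 had -0.30 and control 2 had -0.34, so both lay below all 7 deletion libraries on this scale. That order was not kept under every setting: with median-ratio scaling control 2 had -0.28, inside the deletion range of -0.30 to -0.25, and against the mean of the deletion libraries control 1 had -0.060, where the lowest deletion library had -0.068. Control 3 had 0.24, control 4 had 0.14 and control 5 had 0.27. As a share of the controls' mean TPM, the median member stood at 79.0% to 84.8% in deletion libraries, and at 79.6%, 76.6%, 117%, 108% and 118% in controls 1 to 5. The median over all tested genes lay between 0.019 and 0.095 in deletion libraries and between -0.066 and 0.042 in controls.

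**Figure D1:**
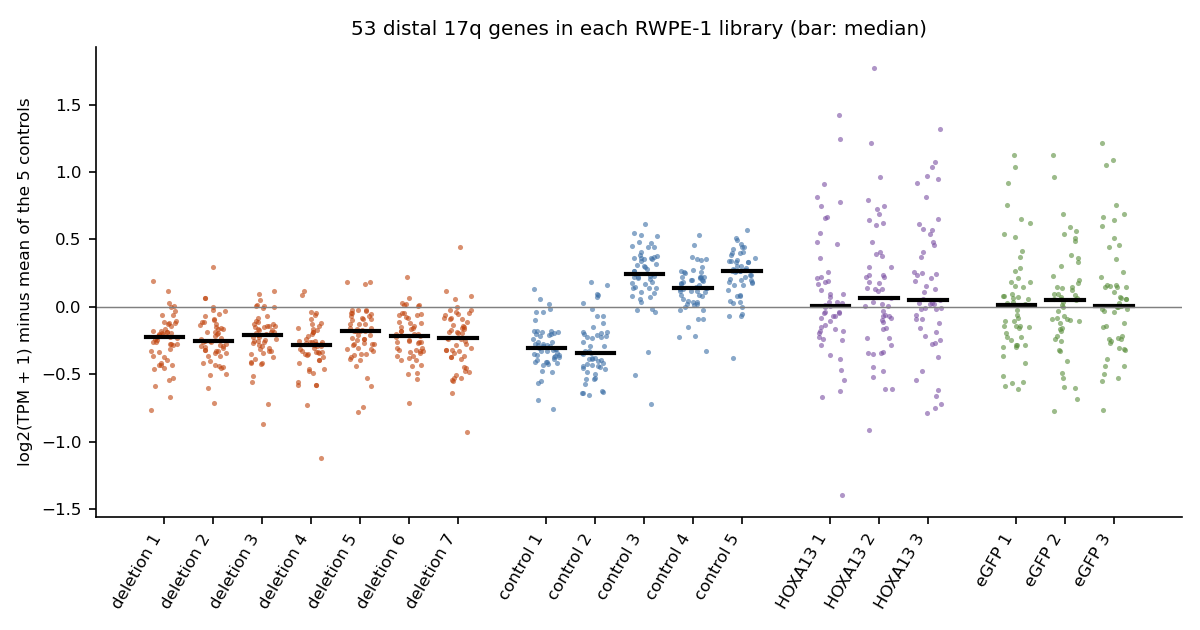
Difference of each of the 53 members from the mean of the 5 RWPE-1 controls, in log2(TPM + 1), for every RWPE-1 library (1 point per member, bar at the median). The bars of deletion 1 to 7 lie between -0.28 and -0.18, those of controls 1 and 2 at -0.30 and -0.34, those of controls 3, 4 and 5 at 0.24, 0.14 and 0.27, and those of the transfected libraries between 0.0064 and 0.064 with a wider scatter of points.

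Gene by gene the shift was broad. In deletion libraries 46 to 51 of the 53 members lay below the controls' mean, and the interquartile range of the members was 0.19 to 0.28. Of the controls, 50 members lay below that mean in control 1 and 47 in control 2, against 6 in control 3, 9 in control 4 and 5 in control 5. A control takes part in the mean it is set against, so its own difference is understated. Over all genes the interquartile range was 0.30 to 0.41 in deletion libraries and 0.24 to 0.28 in controls. All genes include many of lower level than the members, and the ranges were not matched for level.

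A second reading took each control against the range of the 7 deletion libraries, gene by gene. In control 3, 50 of 53 members lay above all 7, where 14.4% of all 14186 tested genes did. In control 4, 44 members lay above all 7, where 21.2% of all genes did, and in control 5, 45 did, where 23.2% of all genes did. Control 1 had 8 members above, where 19.4% of all genes were above, and 19 members below, where 27.3% were below. Control 2 had 9 members above, where 15% of all genes were above, and 21 below, where 38.2% were below. The members were chosen on these libraries, so the shares are printed side by side and nothing is read from their difference. For 31 members exactly 3 controls lay above all deletion libraries, for 6 members 4 did and for 4 members all 5 did. Of all tested genes 7.51% had exactly 3 controls above, 3.22% had 4 and 2.47% had all 5. The 4 members with all 5 controls above were DDX5, CCDC47, P4HB and TRIM47. No member was without a control above the deletion range, against 53.03% of all tested genes.

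**Figure D2:**
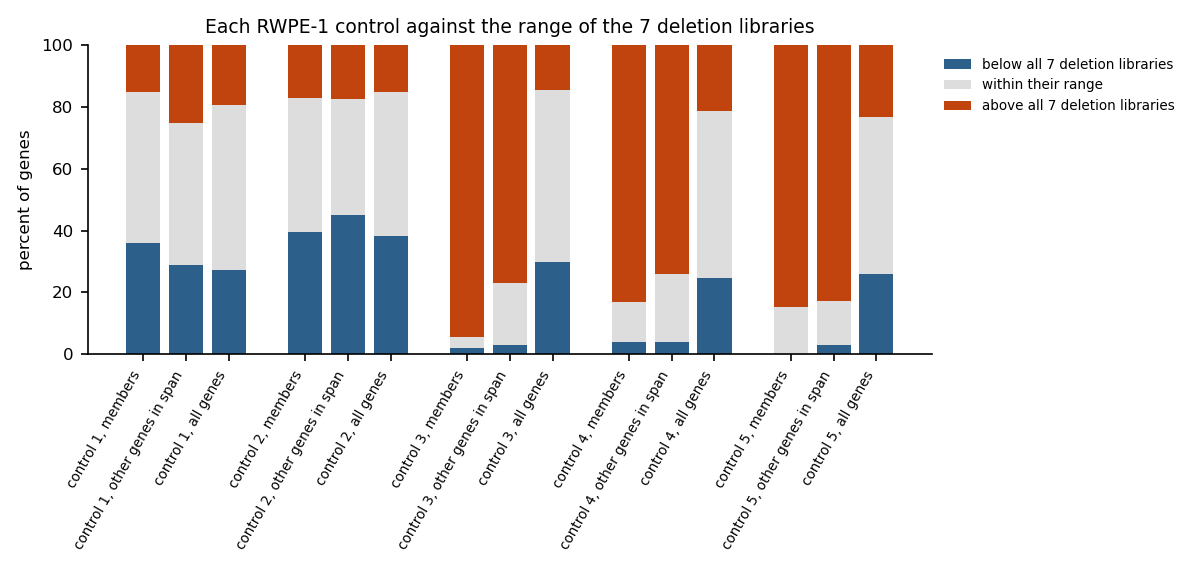
Percent of genes below all 7 deletion libraries, within their range and above all 7, for each of the 5 RWPE-1 controls, over the 53 members, the 104 other genes between MAP3K3 and TBCD, and all 14186 genes tested. The share above is 94.3%, 83.0% and 84.9% of members in controls 3, 4 and 5, and 15.1% and 16.98% in controls 1 and 2.

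The shift extended to the neighbours of the 53 members. Of the 104 other measured genes of the same stretch, 80 lay above all 7 deletion libraries in control 3, 77 in control 4 and 86 in control 5, against 26 in control 1 and 18 in control 2. Set against the mean of the 7 deletion libraries, the members had median differences of -0.060, -0.11, 0.47, 0.41 and 0.49 in controls 1 to 5. The other genes of the stretch had -0.053, -0.16, 0.51, 0.40 and 0.55. The single deletion libraries had -0.068 to 0.029 over the members and -0.098 to 0.070 over the other genes.

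Its extent along the chromosome differed between controls. The 599 protein-coding genes of chromosome 17 with a mean of at least 5 TPM were placed in the order of the RefSeq table of GRCh38.p14, and a running median over 15 genes was fitted with a single step. In control 3 the step of 0.55 lay between MAP3K14 and ARHGAP27 and removed 75.7% of the absolute deviation of the running median. In control 5 the step was 0.58 and removed 78.2%. In control 4 the step of 0.40 lay further along the arm, between UBE2Z and SNF8, and removed 65.6%. Controls 1 and 2 had best steps of 0.031 and -0.076, which removed 5.29% and 2.67%, and the deletion libraries had steps of -0.096 to 0.051, which removed 3.65% to 13.1%. On single genes without a running median the steps of controls 3 and 5 both lay between PLEKHM1 and KANSL1, and that of control 4 stayed between UBE2Z and SNF8. KANSL1 has partial near-identical copies nearby, so its own value at that boundary is uncertain.

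**Figure D3:**
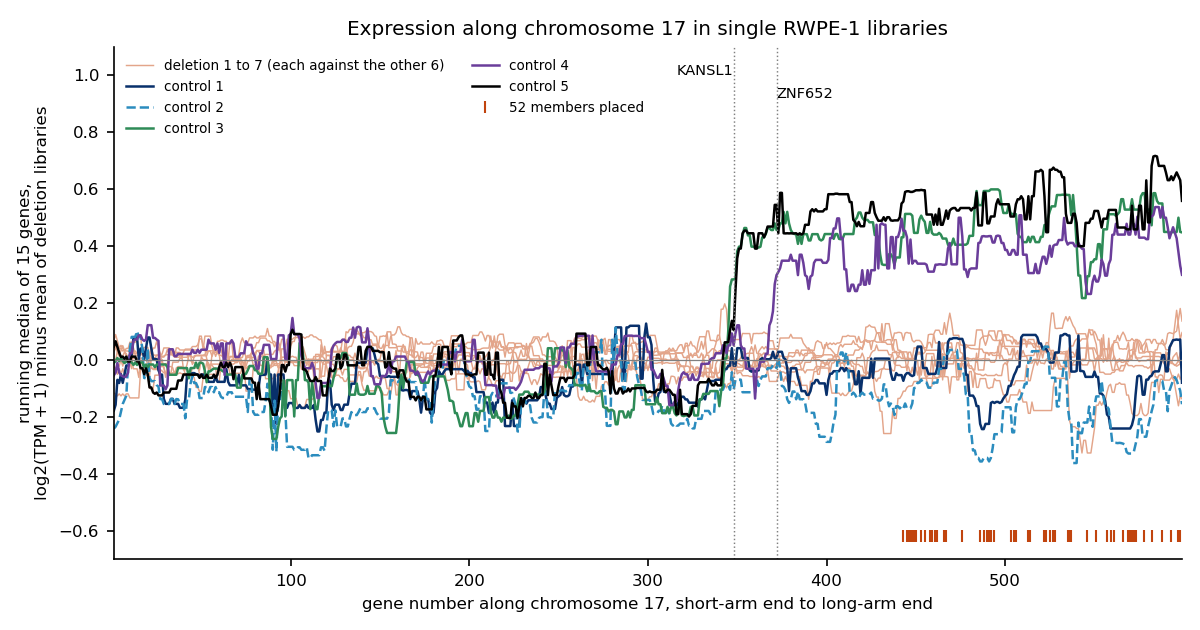
Running median of 15 genes along chromosome 17, as log2(TPM + 1) minus the mean of the deletion libraries, for each control and each deletion library (a deletion library against the other 6), with the 52 members placed in the order (all but GAA) marked at the foot. Controls 3 and 5 step up by 0.55 and 0.58 near KANSL1 and control 4 by 0.40 just before ZNF652, and controls 1 and 2 show no upward step.

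The segments below were cut at the steps fitted above, so their medians restate those steps and add no support. Over the 24 genes from KANSL1 to SNF8 control 4 differed from controls 3 and 5. Those genes had medians against the deletion mean of 0.44 in control 3 and 0.45 in control 5. They had 0.0076 in control 4, 0.0068 in control 1 and -0.051 in control 2. From ZNF652 to the last gene before the members, 71 genes, the medians of controls 3, 4 and 5 were 0.44, 0.35 and 0.50, against -0.062 in control 1 and -0.14 in control 2. The 347 genes from the short-arm end to PLEKHM1, before the cut, had medians of -0.081, -0.14, -0.097, -0.0043 and -0.064 in controls 1 to 5. Controls 3 and 5 differed by -0.026 over the members and controls 1 and 2 by -0.0032, as medians of the first minus the second.

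On the other 20 chromosomes outside 5 and 17, the median of a control against the deletion mean ran from -0.11 to 0.080 in control 1, from -0.21 to 0.0012 in control 2, from -0.15 to -0.019 in control 3 and from -0.24 to 0.092 in control 5, whose lowest was chromosome 7. In control 4 it ran from -0.45, for chromosome 22, to 0.039. Chromosome 5 stood above the deletion libraries in all 5 controls, at 0.31 to 0.45. Of the deletion libraries, deletion 4 stood at 0.33 on chromosome 10 and at -0.44 on chromosome 15 against the deletion mean, of which it is a part. Single-chromosome shifts thus occurred elsewhere in these libraries, in controls and in a deletion library. Whether they and the chromosome 17 shift share a source was not tested.

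Partners of the members' protein complexes that are encoded away from chromosome 17 lay below the deletion mean in all 5 controls, as medians. The partner lists were the proteasome regulatory particle, the exon junction and mRNA export complexes, the signal recognition particle, the exocyst, the mTORC1 and LKB1 complexes and the anaphase promoting complex, 49 genes in all. Their median against the deletion mean was -0.10, -0.16, -0.058, -0.059 and -0.050 in controls 1 to 5, and -0.057 to 0.061 in deletion libraries. In each control the partners' median lay inside the range of the 20 chromosomes given above. Above all 7 deletion libraries lay 4, 5, 5, 8 and 14 of the 49 partners in controls 1 to 5. Of all tested genes 19.4%, 15%, 14.4%, 21.2% and 23.2% did. Below all 7 lay 24, 29, 16, 17 and 14 partners, against 27.3%, 38.2%, 29.7%, 24.7% and 25.9% of all tested genes. Control 3 had 50 of 53 members and 5 of 49 partners above the deletion range, and members and partners were not tested against each other. The members were chosen on these libraries, so nothing is read from the difference between these counts.

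With the 5 controls pooled, as the study's own comparison has them, 52 of 53 members lay lower in the deletion libraries, with a median log2 fold change of -0.22 against 0.054 over all tested genes. Limma with Benjamini-Hochberg adjustment over all genes placed 8 members among the 547 lower genes of 14186 (3.86%) and 0 among the 917 higher genes (6.46%). They were TRIM47, SEC14L1, CYTH1, P4HB, CCDC47, SRP68, PRKAR1A and DDX5, and 5 of the 8 belong to the 8 members of vesicle traffic and secretory entry. The functional groups were drawn up with earlier results of these data known, so nothing is read from that 5. The contrast chose the members, so the count of 8 called members is given beside the share and is not a result about them. Without control 1 it was 16 and without control 2 it was 17, and with median-ratio scaling of the libraries it was 14. The authors' deposited table gives 23 members as lower and 0 as higher, where it calls 9.37% of its 17985 genes lower and 7.98% higher. At the other end PCYT2, an enzyme of phosphatidylethanolamine synthesis, had a log2 fold change of 0.19 (SE 0.155). Its levels were 33.1, 39.6 and 47.5 TPM (lowest, median, highest) in the deletion libraries, against 29.9, 24.5, 53.5, 32.4 and 38.9 TPM in controls 1 to 5.

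**Figure D4:**
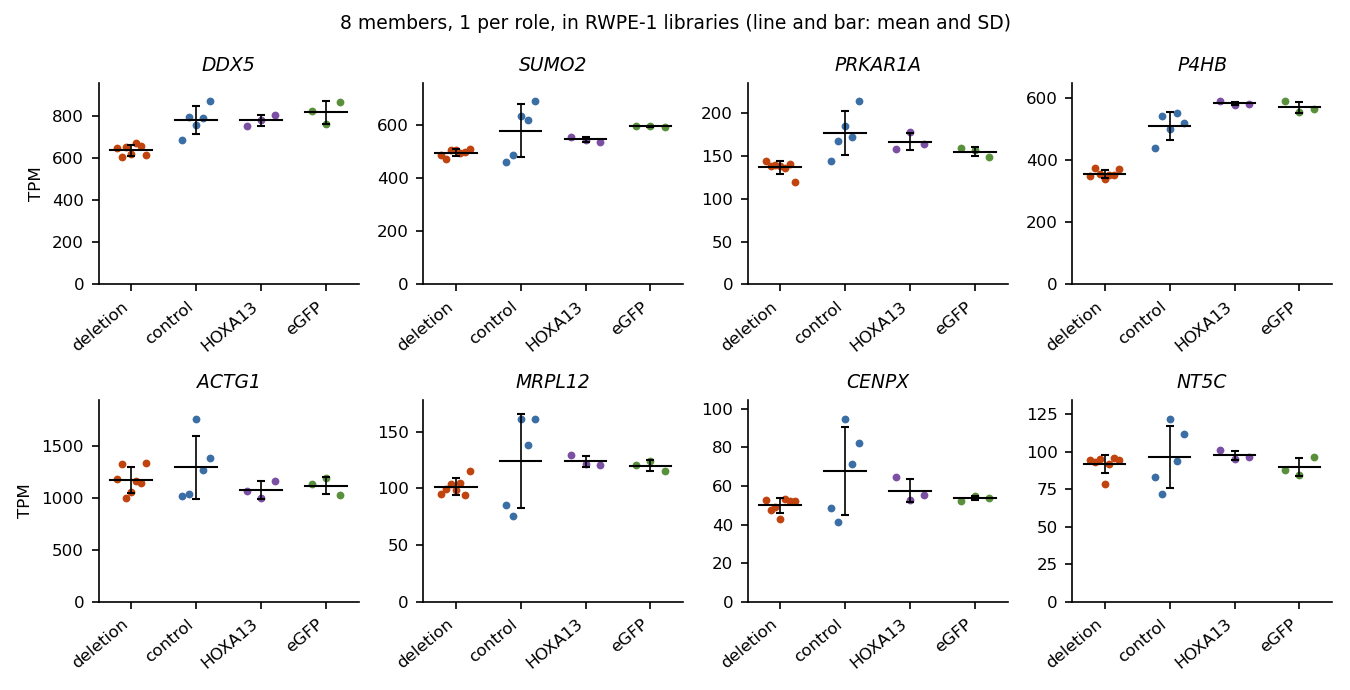
TPM of 8 members, 1 from each functional group, in each RWPE-1 library (points), with the mean as a line and the SD as a bar, for 7 deletion, 5 control, 3 HOXA13 and 3 eGFP libraries. The controls, ordered 1 to 5 from left to right, spread more than the deletion libraries in every panel, and in the MRPL12 panel controls 1 and 2 lie below all deletion libraries.

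Among the 9 RNA splicing, export and helicase genes, all 9 lay above the 7 deletion libraries in control 3 and 8 did in controls 4 and 5, against 1 in controls 1 and 2. DDX5 (ENSG00000108654.12_2), a DEAD-box RNA helicase of splicing and transcription, stood at 603, 647 and 672 TPM (lowest, median, highest) in the deletion libraries, against 685, 794, 757, 789.9 and 869 TPM in controls 1 to 5. All 5 controls lay above the 7 deletion libraries. The log2 fold change was -0.29 (SE 0.0563). SRSF2 (ENSG00000161547.15_2), a serine and arginine rich factor that binds exonic splicing enhancers, stood at 200.5, 224 and 238 TPM in the deletion libraries, against 216, 186, 288, 274 and 298 TPM in the controls. Control 2 lay below all deletion libraries, control 1 within their range and the other controls above it.

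The 7 proteasome, ubiquitin and SUMO genes had 7, 6 and 6 members above the deletion range in controls 3, 4 and 5, against 1 and 0 in controls 1 and 2. SUMO2 (ENSG00000188612.11_2), a small protein that is attached to other proteins, stood at 472, 499 and 513 TPM in the deletion libraries, against 462, 487, 635, 622 and 691 TPM in the controls. Control 1 lay below the deletion libraries and control 2 inside their range. PSMC5 (ENSG00000087191.12_2), an ATPase of the proteasome base that unfolds substrates, stood at 154, 161 and 181 TPM in the deletion libraries, against 182, 155, 275, 234 and 246 TPM in the controls. Controls 3, 4 and 5 were higher than any deletion library by a clear gap, while control 1 was just above them and control 2 near the low end of their range. SUMO2 has processed pseudogenes close to it in sequence, so its level is uncertain where reads could be shared.

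Of the 9 signalling genes, 8, 8 and 9 lay above the deletion range in controls 3, 4 and 5, against 0 and 2 in controls 1 and 2. PRKAR1A (ENSG00000108946.14_2), the regulatory subunit that holds protein kinase A inactive until cyclic AMP binds, stood at 119.6, 139 and 145 TPM in the deletion libraries, against 144, 168, 186, 173 and 214 TPM in the controls. Only control 1 overlapped the deletion libraries. CSNK1D (ENSG00000141551.14_1), a casein kinase of the circadian clock and other pathways, stood at 89.1, 95.6 and 107 TPM in the deletion libraries, against 93.2, 101, 129, 136 and 133 TPM in the controls. Here controls 1 and 2 lay inside the deletion range. MAP3K3, a kinase upstream of MAP kinases and the first member along the arm, stood at 15.97, 17.2 and 18.2 TPM in the deletion libraries, against 15.2, 15.3, 22.2, 26.1 and 24.4 TPM in the controls, with controls 1 and 2 below all deletion libraries. The nearest measured gene before it was TACO1.

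The 8 genes of vesicle traffic and secretory entry had the lowest group median log2 fold change between deletion and control, -0.41, given as a description. P4HB (ENSG00000185624.14_1), the protein disulfide isomerase that also serves as a subunit of collagen prolyl hydroxylase, stood at 340.5, 353 and 376 TPM in the deletion libraries, against 439, 542, 501, 552 and 520.4 TPM in the controls. The groups did not overlap and all 5 controls were higher. SRP68 (ENSG00000167881.10), a protein of the signal recognition particle, stood at 44.7, 49.6 and 56.2 TPM in the deletion libraries, against 53.02, 63.2, 76.7, 62.2 and 80.5 TPM in the controls, with only control 1 inside the deletion range. SEC14L1, a lipid-transfer family protein, stood at 32.9, 37.4 and 42.9 TPM in the deletion libraries, against 44.9, 41.3, 72.5, 59.99 and 71.8 TPM in the controls. Control 2 overlapped the deletion libraries and controls 3 and 5 were the highest. CYTH1, a cytohesin that activates ARF GTPases, stood at 18.5, 20.4 and 26.1 TPM in the deletion libraries, against 33.8, 28.02, 45.5, 33.2 and 24.6 TPM in the controls, and control 5 alone overlapped. For P4HB and CYTH1 controls 1 and 2 thus lay above the deletion libraries, unlike most members. In this group 4 of 8 members lay above the deletion range in control 1 and 4 in control 2. Over the other 7 groups together 4 members did in control 1 and 5 in control 2. Of all tested genes 19.4% did in control 1 and 15% in control 2. The groups were drawn up with these data known, so nothing is read from the difference.

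Among the 4 cytoskeletal genes all 4 lay above the deletion range in control 3, 2 in control 4 and 3 in control 5. ACTG1 (ENSG00000184009.9_2), the cytoplasmic gamma actin, stood at 999, 1159 and 1336 TPM in the deletion libraries, against 1019.8, 1033, 1761, 1263 and 1383 TPM in the controls. Controls 3 and 5 were above the deletion range and the other 3 within it. Its near-identical pseudogenes and the beta actin gene make this level uncertain. ARHGDIA (ENSG00000141522.11_1) stood at 365, 395 and 451 TPM in the deletion libraries, against 341, 325, 596, 421 and 439 TPM in the controls. Control 3 alone was above the deletion range and controls 1 and 2 below it, and the log2 fold change was -0.051 (SE 0.128). TBCD, a tubulin folding cofactor and the last member along the arm before METRNL, stood at 33.4, 39.4 and 44.1 TPM in the deletion libraries, against 32.4, 33.7, 62.8, 47.1 and 60.9 TPM in the controls.

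All 4 genes of the mitochondrial ribosome and nucleolus lay above the deletion range in controls 3, 4 and 5, and 3 of the 4 lay below it in controls 1 and 2. MRPL12 (ENSG00000262814.7_2), of the large mitochondrial ribosomal subunit, stood at 94.4, 99.3 and 115 TPM in the deletion libraries, against 85.1, 75.97, 162, 138 and 162 TPM in the controls. MRPS7 (ENSG00000125445.10_1), of the small subunit, stood at 59.7, 63.9 and 70 TPM in the deletion libraries, against 53.6, 46.6, 96.5, 86.5 and 96.1 TPM in the controls. For both genes controls 3, 4 and 5 were above every deletion library and controls 1 and 2 below every one, so the pooled log2 fold changes of -0.22 (SE 0.176) and -0.19 (SE 0.168) average opposite differences.

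The 4 chromatin and centromere genes had 3, 4 and 4 members above the deletion range in controls 3, 4 and 5, against 0 in controls 1 and 2. CENPX (ENSG00000169689.14_2), a histone-fold protein of the centromere and of DNA crosslink repair, stood at 42.9, 52.1 and 53.1 TPM in the deletion libraries, against 48.4, 41.2, 94.9, 71.4 and 82.5 TPM in the controls. SMARCD2 (ENSG00000108604.15_2), a subunit of BAF chromatin remodelling complexes, stood at 47.99, 50.2 and 52.3 TPM in the deletion libraries, against 38.6, 37.5, 55.1, 57.2 and 76.3 TPM in the controls. Both had control 2 below the deletion libraries, and SMARCD2 also control 1, and its log2 fold change was -0.029 (SE 0.144).

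The remaining 8 members are enzymes, transporters, matrix proteins and others, and 7, 5 and 5 of them lay above the deletion range in controls 3, 4 and 5. NT5C (ENSG00000125458.6_2), a nucleotidase of pyrimidine turnover, stood at 78.3, 94.5 and 95.6 TPM in the deletion libraries, against 83.3, 71.95, 122, 93.5 and 112 TPM in the controls. Its log2 fold change of -0.048 (SE 0.113) was among the 4 highest. TIMP2 (ENSG00000035862.12_2), an inhibitor of matrix metalloproteinases, stood at 60.4, 67.8 and 77.4 TPM in the deletion libraries, against 79.1, 70.4, 83.6, 91.3 and 77.2 TPM in the controls, where controls 1, 3 and 4 were above the deletion range. TRIM47 (ENSG00000132481.6_1), a ubiquitin ligase of the TRIM family, had the lowest difference of all members, -0.78 (SE 0.114). It stood at 23.9, 31.4 and 39.1 TPM in the deletion libraries, against 58.2, 55.9, 41.8, 56.5 and 54.8 TPM in the controls, and control 3 was the lowest control, opposite to its place for most members.

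Forced expression of HOXA13 asks whether that factor moves these genes, in a contrast other than the one that chose them. The state of the transfected and C4-2B libraries was among the earlier results known at that choice. None of the 53 members passed limma with Benjamini-Hochberg adjustment over all 14814 genes tested, of which 2 did (0.0135%). At an unadjusted p under 0.05 there were 4 members, 2 above 0 and 2 below, where 13.5% of all tested genes were. The members' median log2 fold change was 0.077, against 0.036 over all tested genes, with 16 of 53 below 0. PSMD12, a proteasome lid subunit, had the lowest value, -0.46 (95% interval -0.90 to -0.026, limma adjusted p = 0.352). It stood at 31.1, 43.96 and 49.2 TPM with HOXA13, against 55.2, 48.6 and 67.1 TPM with eGFP. GAA, the lysosomal alpha-glucosidase, had the highest, 0.52 (95% interval -0.022 to 1.06, limma adjusted p = 0.385), at 14.5, 18.7 and 10.9 TPM with HOXA13, against 9.91, 7.40 and 12.4 TPM with eGFP. The 95% intervals of the members reached down to -0.90 and up to 1.06. The authors' deposited table calls 1 member higher, GAA, and 4 lower, PSMD12, SMURF2, PRKAR1A and NOL11, where it calls 2.43% of its genes higher and 9.64% lower.

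The most abundant members stood close together in the transfected pairs. DDX5 stood at 754, 778 and 805 TPM with HOXA13, against 823, 760.1 and 866 TPM with eGFP, and ACTG1 at 1068, 995 and 1163 TPM, against 1133, 1188 and 1026 TPM. Both pairs of groups overlapped. P4HB stood at 590.3, 579.7 and 582 TPM with HOXA13, against 589.8, 556 and 565 TPM with eGFP, above every RWPE-1 deletion and control library. SUMO2 stood at 555, 546 and 539 TPM with HOXA13, against 598, 599 and 595 TPM with eGFP. The SUMO2 groups did not overlap, with a log2 fold change of -0.13 (95% interval -0.23 to -0.024) and a limma adjusted p of 0.312. PRKAR1A shows how the estimates differ: it had 0.10 from TPM (limma adjusted p = 0.521) and -0.20 in the authors' deposited table (DESeq2 adjusted p = 0.0305).

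On the scale of the RWPE-1 controls, the transfected libraries stood between the single controls over the members, though not over all their neighbours. Their members' median against the mean of the 5 controls was 0.0064, 0.064 and 0.051 with HOXA13, against 0.013, 0.049 and 0.0087 with eGFP. Against the mean of the 7 deletion libraries it was 0.22, 0.26 and 0.26 with HOXA13 and 0.21, 0.20 and 0.22 with eGFP, higher than controls 1 and 2 and lower than controls 3, 4 and 5. The difference between the members and the first 347 genes of the chromosome was 0.10 to 0.19 with HOXA13 and 0.18 to 0.21 with eGFP, against 0.022 to 0.57 over the controls. The other genes of the stretch had medians of 0.60 to 0.66 with HOXA13, above every single control, and 0.42 to 0.45 with eGFP. The scatter was wide, with a members' interquartile range against the controls of 0.40 to 0.62 with HOXA13 and 0.37 to 0.46 with eGFP, and 0.74 to 0.92 over all genes in these libraries. The partner genes had medians of -0.29, -0.18 and -0.23 with HOXA13 and -0.21, -0.21 and -0.18 with eGFP. These libraries were transfected and sorted, and the part of that handling in their values was not tested.

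Deletion of the risk region in C4-2B repeats the editing in a cancer line. The first library of control line 3 stood apart, with a members' median of -0.57 and an all-gene median of -0.46 against the control lines' mean, so results are also given without it. None of the 53 members passed limma on line means with 3 deletion and 3 control lines, and 0 of 14820 genes did (0%), while 529 genes (3.57%) had an unadjusted p under 0.05. At an unadjusted p under 0.05 there was 1 member, ARHGDIA, at 0.45 (95% interval 0.054 to 0.85, limma adjusted p = 0.993). It stood at 208 ± 21.2 TPM in deletion lines, against 156 ± 27.8 TPM in control lines (SD over 3 lines each). Without the first library of control line 3 its value was 0.33 (limma adjusted p = 0.875). The members ran from -0.22 for TRIM47 to 0.45, with 29 of 53 above 0. Their median was 0.028, against 0.068 over all tested genes, and its sign changed with the processing: it was -0.048 with median-ratio scaling, -0.030 with quantile normalization, -0.045 without control line 3 and -0.019 without the first library of that line. The authors' deposited table calls 2 members higher, PRKAR1A and GRB2, and 2 lower, ALYREF and TIMP2, where it calls 4.34% of its genes higher and 4.22% lower.

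Averaged over the 3 libraries of a line, the members' median against the mean of the control lines was 0.086 in line m, 0.0039 in le5 and 0.041 in ld9, against 0.14, 0.053 and -0.19 in control lines 1, 2 and 3. DDX5 stood at 688 ± 38.8 TPM in deletion lines, against 677 ± 141 TPM in control lines, and SUMO2 at 537 ± 17.2 TPM, against 551 ± 1.92 TPM. P4HB stood at 874 ± 141 TPM in deletion lines, against 972 ± 380.4 TPM in control lines. For these 3 genes the means differed by less than the larger SD. The first library of control line 3 held 2162 TPM of P4HB and 70.5 TPM of ARHGDIA, far from the other libraries. Against the mean of the control lines, the members differed from the first 347 genes of the chromosome by -0.031 to 0.046 in deletion libraries and by -0.035 to 0.065 in control libraries. A shift that every C4-2B line carried would not appear in this measure. For 6 of the 53 members every RWPE-1 deletion library lay below its control mean and every C4-2B deletion library above its own, where 2.11% of the 12494 genes tested in both lines did, and the RWPE-1 side of that count chose the members. As levels, in tables normalized separately and with no test, the C4-2B range over 18 libraries lay wholly above that of 18 RWPE-1 libraries for 2 members, where 11.6% of those genes did, and wholly below for 8, where 11.5% did. Those C4-2B ranges include the first library of control line 3, and some members overlap only through it.

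**Figure D5:**
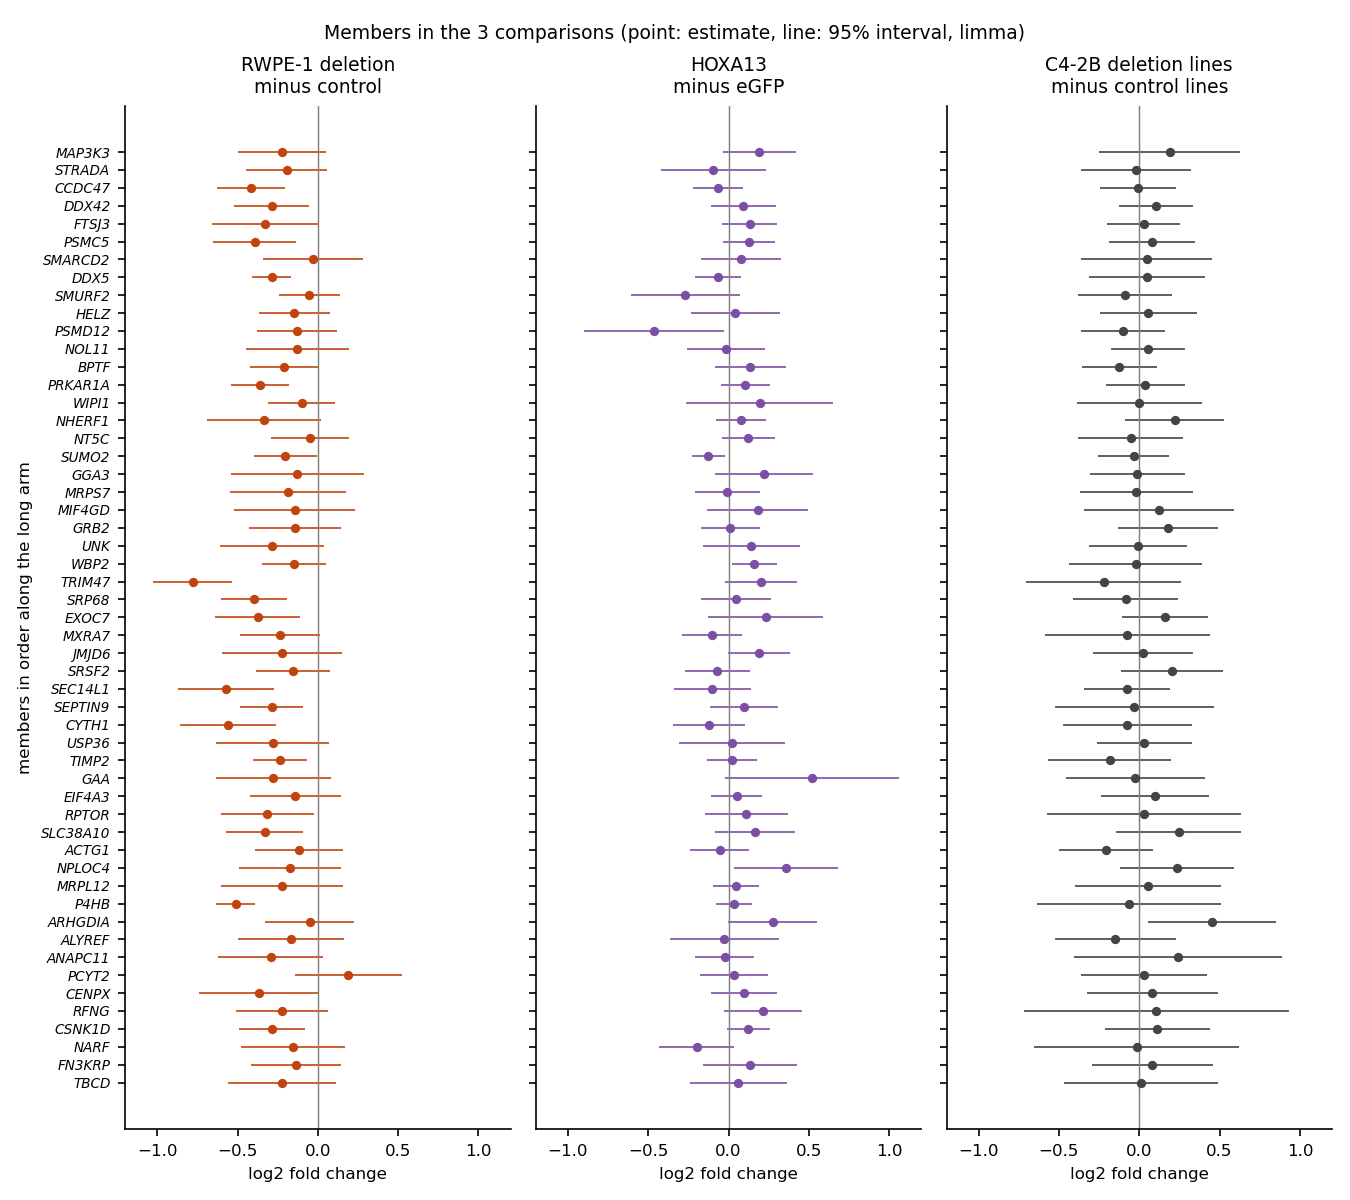
Log2 fold change of each of the 53 members with its 95% interval, in order along the arm from MAP3K3 to TBCD, for RWPE-1 deletion minus control, HOXA13 minus eGFP and C4-2B deletion minus control lines. In the first panel 52 of 53 points lie below 0, in the second 16 and in the third 24.

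The Hi-C map gives a measurement of RWPE-1 chromatin that does not rest on RNA. The read pairs a bin forms with other chromosomes depend on the amount of its DNA, on how well it can be mapped and cut, and on its place in the nucleus. The map was read for contacts with chromosomes 1 and 2. The 500 bins of 40 kb at the end of the long arm, 20 Mb, had a median of 462.5 read pairs with chromosomes 1 and 2, against 465 in the other bins of chromosome 17, a ratio of 0.995. The ratio was 1.01 with chromosome 1 alone, 0.990 with chromosome 2 alone and 1.03 for means. The other bins were not divided at the steps fitted on RNA. The upward steps in the controls lay before the members along the arm, so the other bins may hold part of the shifted stretch. The contacts of the shifted stretch against those of the unshifted part of the chromosome alone were not tested. The medians of 19 other autosomes ran from 158 for chromosome 18 to 577.5 for chromosome 9. The counts are raw and uncorrected and the replicates are combined, so there is no spread to set the ratio against. Whether the Hi-C cells match any single control library is not given in the sources used here.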

How the data were processed

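RNA-seq values were used as deposited by the authors, in TPM per gene for RWPE-1 and, in a separately normalized table, for C4-2B. TPM keep no read numbers, so library depth is unknown, but 13818 to 15256 genes reached 1 TPM in RWPE-1 libraries and 13661 to 14848 in C4-2B libraries. No library copied another, since any pair within a table differed in at least 23993 genes. The authors' deposited comparison tables, named as DESeq2 output, give, per the file headers, the log2 fold change, its standard error (entered as a score), p-values and a mean signal per gene. The submitters' processing notes name the build GRCh37, the counters RSEM 1.3.0 and featureCounts 1.5.1, the aligner STAR 2.5.2b, DESeq2 1.14.1, Trimmomatic 0.35 and HiC-Pro 2.8.0, without saying which of them made the TPM. The kits were stranded per the labels, but whether reads were counted by strand is not given in the sources used here, so overlapping antisense reads may be included. Hi-C counts were deposited as raw read pairs per pair of 40 kb bins, of which 1 incomplete last line was dropped.

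Values were taken as log2(TPM + 1) and tested with limma 3.58.1 in R 4.3.3 (lmFit, eBayes with trend, two-sided), on genes with at least 1 TPM in as many libraries as the smaller group. Calls used a Benjamini-Hochberg adjusted p under 0.05 over all genes tested. The added 1 makes log2 fold changes of low genes smaller. C4-2B libraries were averaged per line, which then was the replicate. The fit was tested on simulated data. The alternatives were another pseudocount, no filter, 2 other scalings, leaving out each library or line, a replicate block and other reference libraries. Gene order and promoters came from RefSeq tables of GRCh38.p14, matched by symbol, and 129 of 130 symbols of the lists matched. The members, the 8 functional groups and the 6 partner lists were chosen with earlier results of these data known. Values in every library are printed for the 2 members of each functional group with the highest mean TPM in RWPE-1. Also named are the members with the 4 lowest and 4 highest RWPE-1 differences, the first and last along the arm, and, chosen after their values were seen, the members at the ends of the other comparisons.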

Additional observations from a re-analysis of the deposited data

Results flagged for a closer look

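In 3 of 46 groups of library values checked, 1 library stood far from the others of its group by Dixon's criterion, which chance meets in about 1 of 20 groups. PRKAR1A stood at 119.6 TPM in deletion 7, below the other deletion libraries, NT5C at 78.3 TPM in deletion 4, also below the others, and TRIM47 at 41.8 TPM in control 3, below the other controls.

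For 6 members all 7 RWPE-1 deletion libraries lay below the mean of the RWPE-1 controls and all 9 C4-2B deletion libraries above the mean of the C4-2B control lines. Of the 12494 genes tested in both lines 2.11% met the same rule. The difference between the cell lines was not tested. The C4-2B log2 fold changes were 0.21 for SRSF2, 0.24 for ANAPC11, 0.19 for MAP3K3, 0.18 for GRB2, 0.22 for NHERF1 and 0.25 for SLC38A10, against RWPE-1 values of -0.15, -0.29, -0.22, -0.14, -0.33 and -0.33. The members were chosen on the RWPE-1 libraries, so nothing is read from their number. None of the 6 passed limma in either line. Without the first library of control line 3, which stood apart, the C4-2B values were 0.11 for SRSF2, 0.035 for ANAPC11, 0.15 for MAP3K3, 0.055 for GRB2, 0.20 for NHERF1 and 0.11 for SLC38A10.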

How the results depend on the processing

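The members' count of calls in RWPE-1 deletion was 8, and 14 with median-ratio scaling. Leaving out each library in turn it was 8 to 17, with 16 without control 1 and 17 without control 2, and the members' median ran from -0.32 to -0.15. With shared replicate numbers as a block the count was 3 and the median -0.22. Same-numbered libraries did not deviate together (correlations -0.15 to 0.14 in RWPE-1 deletion and control, -0.017 to 0.0064 with HOXA13 and eGFP), so the numbers do not pair the libraries. The block left 0 members called in the other comparisons, with medians of 0.077 and 0.028. The HOXA13 median was 0.049 with median-ratio scaling and 0.059 to 0.083 leaving out each library, and the C4-2B median ran from -0.045 to 0.11 leaving out each line. No member was called in either comparison under any alternative run. Single-library members' medians moved by more than the spread in 101 of 252 alternatives, but controls 1 and 2 stayed below 0 and controls 3, 4 and 5 above 0 in each. Counts of members below 0 (36 alternatives) moved by less than a fixed factor and the controls' step sizes (20) by less than a fixed difference. Neither limit is a spread. Not among the 20 were fits on genes of at least 1 TPM with windows of 9, 25 and 1 genes. There control 2 had steps of -0.17, -0.18 and -0.20, which removed 1.17%, 6.04% and 0.50% of the absolute deviation. They lay near the short-arm end, after RPA1, OVCA2 and DPH1, and not at the members. The Hi-C ratio stayed between 0.990 and 1.03. Depth is unknown, 3 libraries or lines a group limit the smaller comparisons, and the choice of controls sets every RWPE-1 value.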

Other observations

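The levels of some members differed between the cell lines, in tables that were normalized separately and are set side by side without a test. Over 18 libraries of each line, the ranges overlapped for 43 members. These ranges include the first library of C4-2B control line 3, which stood apart, and some overlaps rest on it alone. CENPX stood at 66.4 TPM in it and at 133 to 180 TPM in the other C4-2B libraries, against at most 94.9 TPM in RWPE-1. SEC14L1 stood at 34.9 TPM in it and at most at 29.5 TPM in the others, against at least 32.9 TPM in RWPE-1. The genes named here were chosen after their values were seen. CCDC47, an endoplasmic reticulum protein of membrane insertion, stood at 122 to 152 TPM in C4-2B and 52 to 95.4 TPM in RWPE-1, and P4HB at 638 to 2162 TPM and 340.5 to 590.3 TPM. Below were MXRA7, at 3.43 to 7.17 TPM in C4-2B and 34.1 to 58.8 TPM in RWPE-1, TIMP2, at 12 to 23.8 TPM and 60.4 to 95.4 TPM, SEPTIN9, a septin of the cytoskeleton, at 58.2 to 108 TPM and 213 to 341 TPM, and ARHGDIA, at 70.5 to 264 TPM and 325 to 635 TPM. The other members below were MAP3K3, STRADA, NT5C and TRIM47.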
